A study of Mus musculus with 9 samples.

Results

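ERK, the kinase at the end of the RAS-RAF-MEK cascade, switches on genes that dampen the cascade, and ETS factors that carry its signal to other genes, and the RNA of 10 of these was followed here in mouse prostate cancer cells given NRG1. The 10 genes were taken by name: the dual-specificity phosphatases Dusp4, Dusp5 and Dusp6, the Sprouty genes Spry1, Spry2 and Spry4, the Sprouty-related genes Spred1 and Spred2, and the ETS factors Etv4 and Etv5. Of the 10, 8 had a row in the table of 15552 protein-coding genes, and 7 of these were among the 11373 genes with enough reads to be tested. Dusp5 had too few reads for the test and is described by its counts, and the RNA of Spry1 and Spry2 was not analysed here.

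The cells were MyC-CaP, a single line from prostate tumors of mice carrying a MYC transgene under a prostate promoter. All 9 libraries came from wells starved for 6 to 12 h without serum or calcium. The 12 and 24 h wells were then given 15 ng/mL recombinant NRG1, a ligand of HER3. The 0 h wells, labeled as NRG1-treated at 0 h, had no time with it. RNA was taken at 0, 12 or 24 h, with 3 biological replicates per time, which the labels describe as wells plated in triplicate. Test results therefore measure the spread between such wells. Libraries without NRG1 at 12 and 24 h were not analysed here, so time with NRG1 and time in the starvation medium cannot be told apart.

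Phosphatases of the DUSP family remove the phosphates that activate ERK. DUSP6 acts in the cytoplasm and DUSP5 in the nucleus, both with a preference for ERK, while nuclear DUSP4 also acts on other MAP kinases. Sprouty proteins interfere with signaling from receptor tyrosine kinases to RAS, and Spred proteins bring the RAS inhibitor neurofibromin to the membrane. ETV4 and ETV5 are activators of the PEA3 group of ETS factors, and are known for roles in migration and invasion, including in prostate cancer. Capicua, a repressor that ERK signaling takes off DNA, is known to keep several of these genes low.

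Libraries held between 28467089 and 39239760 counts, with overlapping ranges at the 3 time points. Chi-square values per degree of freedom between replicates ran from 3.4 to 10.3, more than counting noise alone gives for every pair. The highest, 10.2 and 10.3, were those of the third 12 h library against the other two at 12 h. The label calls the cells epithelial-like. The luminal factor Foxa1 was at 274 to 297 CPM, counts scaled to library size, but the epithelial markers Epcam and Cdh1 had at most 3 and 4 counts in a library, and Krt18 6 to 17. Of 7 fibroblast markers, 6 were in the table, with a summed level of 16.3 to 17.9 CPM at 0 h, 15.3 to 18 at 12 h and 15.7 to 17.9 at 24 h, nearly all of it Pdgfra. The 3 immune markers in the table summed to at most 1.05 CPM in any library, and the 3 endothelial ones to at most 0.299 CPM.

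Promoter windows from RefSeq (GRCm38.p6) were found for 7 of the 10 genes, and 3 of them are printed here because they hold the motifs searched for in different arrangements. Each runs from 250 bases before a transcript start to 30 bases after it, 5′ to 3′ on the strand of the gene. The first is that of Dusp6, the gene with the largest change at 12 h, at chr10:99262981-99263260 on the plus strand. The second is the Etv5 window that lies inside the span of the gene, at chr16:22438339-22438618 on the minus strand. The third is that of Dusp5, the gene with almost no reads, at chr19:53528895-53529174 on the plus strand. Capitals mark Capicua motifs in the Dusp6 and Etv5 windows and CArG boxes, which serum response factor binds, in the Dusp5 window.
Dusp6: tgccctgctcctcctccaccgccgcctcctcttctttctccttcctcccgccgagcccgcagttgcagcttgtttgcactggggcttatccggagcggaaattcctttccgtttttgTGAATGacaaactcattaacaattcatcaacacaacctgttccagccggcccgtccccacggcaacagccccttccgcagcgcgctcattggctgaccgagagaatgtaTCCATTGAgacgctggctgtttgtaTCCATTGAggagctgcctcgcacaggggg
Etv5: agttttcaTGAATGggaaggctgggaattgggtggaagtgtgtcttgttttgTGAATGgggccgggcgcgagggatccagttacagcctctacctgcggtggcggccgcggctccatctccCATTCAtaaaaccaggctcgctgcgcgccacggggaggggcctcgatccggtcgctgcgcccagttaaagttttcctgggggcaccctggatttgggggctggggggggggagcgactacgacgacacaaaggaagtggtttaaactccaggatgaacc
Dusp5: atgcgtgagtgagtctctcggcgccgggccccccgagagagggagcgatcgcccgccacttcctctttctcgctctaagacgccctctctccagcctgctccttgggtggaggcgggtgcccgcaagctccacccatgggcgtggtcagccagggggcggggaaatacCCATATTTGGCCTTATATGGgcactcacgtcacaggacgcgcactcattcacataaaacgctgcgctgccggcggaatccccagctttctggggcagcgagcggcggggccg

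The Capicua octamer was searched as TGAATGAA, TGAATGGA, TCAATGAA or TCAATGGA on both strands over the window with 50 bases after the start. The Dusp6 window held it at 2 places, both as TCCATTGA, with first bases at -24 and 2 relative to the transcript start. The Spry2 window held 1 octamer, TTCATTGA, at -54. At least 1 octamer was found in 3.84% of the 32851 windows in the RefSeq table. The shorter core TGAATG, which 2 of the 4 octamers contain, stood at -133 in the Dusp6 window. In the Etv5 window it stood at -242 and -198, and on the other strand, as CATTCA, at -129. The core was found in 12.7% of all windows. The other Etv5 window, at the 5′ end of the gene, held neither form, nor did those of Spred1, Spred2 and Spry1.

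The 2 CArG boxes of the Dusp5 window abutted each other, starting at -82 and -72, and 1.63% of all windows held such a box. The Dusp5 window also held the core on the other strand at -37. The cyclic AMP response motif TGACGT, in 7.51% of windows, stood on the other strand in the Dusp5 window at -56 and in the Spred2 window at -52. Neither the ETS site CCGGAAGT, in 3.89% of windows, nor the AP-1 site, TGAGTCA or TGACTCA, in 5.2%, was found in the windows of these genes. These are matches of letters, chosen for search with the sequences known, and no binding was measured.

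Levels of different genes were compared at 0 h as CPM per kilobase of exon. Dusp6 stood at 26.1 ± 0.357 CPM per kb (SD, n = 3) and Spred2 at 25.3 ± 0.847, at percentiles 83.5 and 82.9 of the tested genes, and these neighbors did not differ beyond their spread. Dusp4 at 18.5 ± 1.21, Etv4 at 17.8 ± 0.369 and Spred1 at 17.6 ± 0.121 CPM per kb followed, again within their spread of each other. Etv5 was lower, at 5.98 ± 0.263 CPM per kb and percentile 46. Spry4, at 0.396 ± 0.128 CPM per kb and percentile 9.11, was near the bottom of the tested genes. At 12 h Dusp6 stood at 36.6 CPM per kb and Spred2 at 26.7, so the first was then clearly above the second.

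To ask how these feedback genes responded, each later time point was compared with 0 h, and with the other, by edgeR's quasi-likelihood test, with p-values adjusted by Benjamini-Hochberg over all 11373 genes. A gene passed at an adjusted p of at most 0.05, and rose or fell accordingly. At 12 h 2 of the 7 tested genes rose, Dusp6 and Etv5, and 1, Spred1, fell. Over all tested genes 13.6% rose and 11.9% fell at 12 h. At 24 h 3 of the 7 rose, Dusp6, Etv5 and Etv4, against 9.67% of all tested genes, and none fell, against 7.76%. For falls at 24 h the count was also 0 at an unadjusted p under 0.05 in edgeR, and 0 by DESeq2. The median log2 fold change of the 7 was 0.094 at 12 h and 0.12 at 24 h, beside -0.0028 and -0.0065 for all tested genes. Both comparisons use the same 0 h libraries. In bulk RNA, fewer cells expressing a gene and less of its RNA per cell cannot be told apart.

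**Figure D1:**
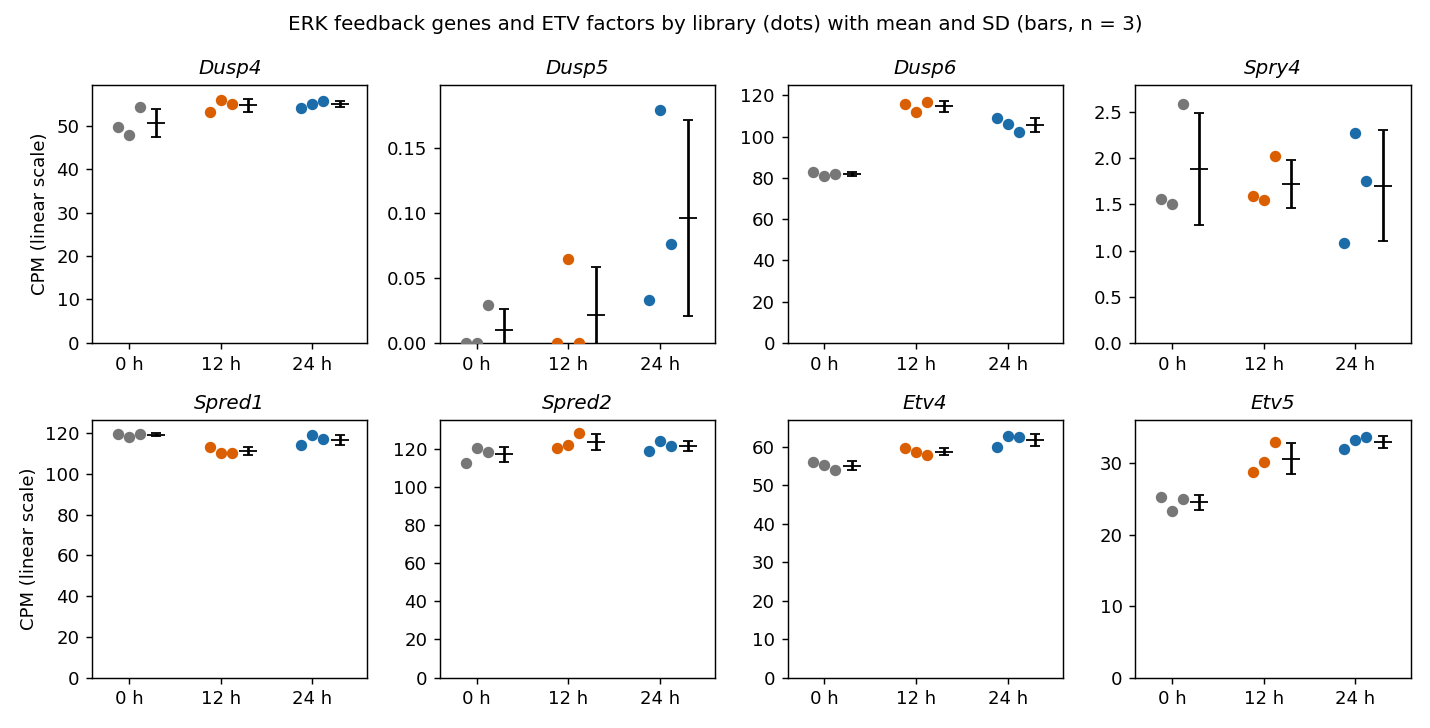
Levels of the 8 genes with a row in the table, in CPM on a linear axis from 0, by time with NRG1; dots are libraries and bars the mean and SD of 3. Dusp6 and Etv5 libraries at 12 and 24 h all lie above those at 0 h, and Dusp5 is near 0 throughout.

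None of the 7 changed by 1.5-fold or more, by edgeR or by DESeq2, and the largest fitted change was 0.49 on the log2 scale. Of all tested genes, 2.29% passed with a change of at least 1.5-fold at 12 h and 2.27% at 24 h. Library values did not overlap those at 0 h for 5 of the 7 genes at 12 h and for 3 at 24 h, where 38.4% and 35.5% of all tested genes did not overlap. A test of any difference among the 3 time points was passed by 3 of the 7, Dusp6, Etv5 and Etv4, beside 27.4% of all tested genes.

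Dusp6 (ENSMUSG00000019960.8, GRCm38 chromosome 10, 99263231 to 99267489) changed most at 12 h. Its libraries stood at 83.0, 80.8 and 81.8 CPM at 0 h, at 116, 112 and 117 CPM at 12 h, and at 109, 106 and 102 CPM at 24 h. All 6 later libraries were above all 3 at 0 h, and the 24 h libraries were all below those at 12 h. The level rose by 40.1% at 12 h (95% interval 32.5 to 48.2), which is 0.49 ± 0.038 in log2 units (fit and SE; edgeR adjusted p = 3.34e-07). At 24 h it was 29.1% above 0 h (22 to 36.5), a log2 fold change of 0.37 ± 0.038 (edgeR adjusted p = 4.56e-06). The difference between 24 and 12 h, -0.12 ± 0.038 on the log2 scale, did not pass over all genes (edgeR adjusted p = 0.0813).

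Etv5 (ENSMUSG00000013089.15, chromosome 16, 22381309 to 22439719) was at 25.3, 23.3 and 25.0 CPM at 0 h. Its 12 h libraries stood at 28.7, 30.1 and 33.0 CPM, and those at 24 h at 32.0, 33.3 and 33.6. Every later library was above every 0 h library, while those at 12 and 24 h overlapped. Etv5 rose by 24.9% at 12 h (95% interval 14.3 to 36.5), a log2 fold change of 0.32 ± 0.061 (edgeR adjusted p = 0.000956). At 24 h the increase was 34.8% (23.5 to 47.1), a log2 fold change of 0.43 ± 0.06 (edgeR adjusted p = 8.16e-05), the largest of the 7 at that time. The difference of 0.11 ± 0.059 (log2) between 24 and 12 h did not pass (edgeR adjusted p = 0.32).

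Etv4 (ENSMUSG00000017724.14, chromosome 11, 101769742 to 101785371), the other PEA3 factor, changed less. Its 0 h libraries were at 56.2, 55.2 and 53.9 CPM, its 12 h libraries at 59.8, 58.7 and 57.9, and its 24 h libraries at 59.9, 62.8 and 62.7. The 3 times did not overlap, in the order 0, 12 and 24 h, but only 24 h against 0 h passed. The increase at 24 h was 12.2% (95% interval 5.63 to 19.3), a log2 fold change of 0.17 ± 0.041 (edgeR adjusted p = 0.00986). At 12 h the log2 difference was 0.094 ± 0.042 (edgeR adjusted p = 0.112).

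Spred1 (ENSMUSG00000027351.14, chromosome 2, 117121374 to 117182279) was the single gene of the 7 to fall. The 0 h libraries gave 120, 118 and 120 CPM, the 12 h libraries 113, 110 and 110, and the 24 h libraries 114, 119 and 117. The 12 h libraries were below all others. The 12 h change was -6.65% (95% interval -11.4 to -1.7), a log2 fold change of -0.099 ± 0.035 (edgeR adjusted p = 0.0482). The call was lost in 14 of the 15 other settings tried, with adjusted p between 0.0338 and 0.149 over all 15. At 24 h the log2 difference from 0 h was -0.03 ± 0.035 (edgeR adjusted p = 0.621).

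Spred2 (ENSMUSG00000045671.17, chromosome 11, 19924375 to 20024026), its paralog, did not pass at either time. Its 0 h libraries stood at 113, 120 and 118 CPM, those at 12 h at 120, 122 and 128, and those at 24 h at 119, 124 and 121. All 12 h libraries were just above all 0 h libraries, and those at 24 h overlapped them. Against 0 h the log2 differences were 0.076 ± 0.039 at 12 h and 0.053 ± 0.039 at 24 h (edgeR adjusted p = 0.171 and 0.399). Their 95% intervals reached from -0.0066 to 0.16 and from -0.03 to 0.14.

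Dusp4 (ENSMUSG00000031530.6, chromosome 8, 34807297 to 34819894) gave 49.8, 47.8 and 54.3 CPM in the 0 h libraries, 53.1, 56.0 and 54.9 in those of 12 h, and 54.2, 55.1 and 55.8 in those of 24 h. The third 0 h library lay among those of the later times. The log2 differences from 0 h, 0.11 ± 0.049 at 12 h and 0.12 ± 0.049 at 24 h, did not pass (edgeR adjusted p = 0.113 and 0.105). Without the third 0 h library they were 0.17 and 0.18, and both passed (edgeR adjusted p = 0.0208 and 0.0224). Without the second 0 h library they were 0.075 and 0.083 (edgeR adjusted p = 0.346 and 0.333). Under 14 of the 15 other settings neither passed.

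**Figure D2:**
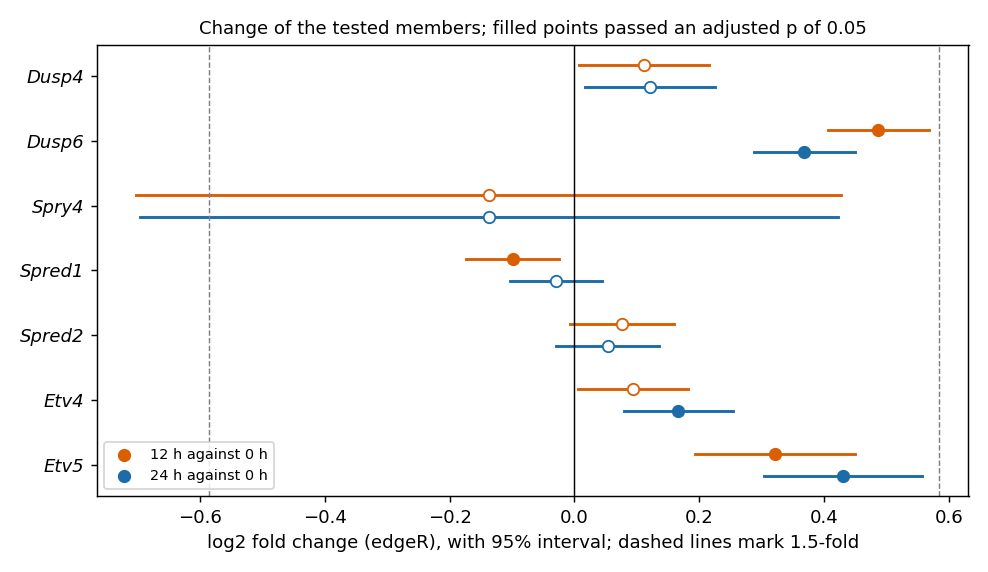
Log2 fold change against 0 h of the 7 tested genes at 12 h and 24 h, as points with 95% intervals; filled points passed an adjusted p of 0.05 and dashed lines mark 1.5-fold. Dusp6 at 0.49 and Etv5 at 0.43 are the largest changes, and Spry4 has by far the widest interval.

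Spry4 (ENSMUSG00000024427.7, chromosome 18, 38586247 to 38601415) had 44, 57 and 89 counts in the 0 h libraries, 57, 48 and 62 at 12 h and 33, 76 and 69 at 24 h. In CPM these are 1.56, 1.5 and 2.59, then 1.59, 1.54 and 2.02, then 1.08, 2.27 and 1.76. The 3 times overlapped. The log2 differences from 0 h were -0.14 ± 0.27 at both times (edgeR adjusted p = 0.755 and 0.783), and the 95% interval at 12 h ran from -38.5% to 34.4%. A change of the size seen in Etv5 at 12 h was therefore not detectable for Spry4 at this depth.

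Dusp5 (ENSMUSG00000034765.6, chromosome 19, 53529109 to 53542431) had 0, 0 and 1 counts at 0 h, 0, 2 and 0 at 12 h, and 1, 6 and 3 at 24 h. A count of 0 allows up to 3 counts, which is 0.0764 to 0.106 CPM in these libraries. Per unit of depth the 10 reads at 24 h were 9.75 times the 1 read at 0 h, with an exact 95% interval of 1.39 to 423 that covers counting error only. Fitted with no filter on low counts, Dusp5 did not pass at 24 h (edgeR adjusted p = 0.226) or at 12 h (0.857). Of its exonic bases 22.1% overlap AC137853.2 on the other strand, and the strand setting of the counting was not stated. For the other 7 genes no exonic base overlapped another gene.

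Between 12 and 24 h none of the 7 passed in edgeR, beside 1.97% of all tested genes that were higher at 24 h and 3.06% lower. At an unadjusted p under 0.05 the edgeR count was 1, Dusp6, and by DESeq2 it was 0. With libraries scaled by their total counts instead of by TMM, 279 of all tested genes were higher and 265 lower, beside 224 and 348 with TMM. Library values of 3 of the 7 did not overlap between 12 and 24 h, where 25% of all genes did not: Dusp6 was lower, and Spred1 and Etv4 higher, in all 24 h libraries. Changes of at least 1.5-fold that passed were seen in 0.29% of all tested genes.

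Ratios of raw counts within a library compare genes with no scaling between libraries, and 4 were chosen after the values were seen. The Dusp6 to Etv5 ratio was 3.29, 3.47 and 3.27 at 0 h, 4.03, 3.71 and 3.54 at 12 h, and 3.40, 3.18 and 3.04 at 24 h. It was thus higher in every 12 h library than in any library of the other times. The log2 difference was 0.17 between 12 and 0 h and -0.23 between 24 and 12 h. Between 24 and 0 h it was -0.061, with overlapping libraries (exact permutation p = 0.4).

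The Etv5 to Etv4 ratio was 0.445 ± 0.0215 at 0 h (SD, n = 3), 0.522 ± 0.0451 at 12 h and 0.534 ± 0.00285 at 24 h, with all later libraries above 0 h. Between the paralogous phosphatases, the Dusp6 to Dusp4 ratio was 1.62 ± 0.0989, 2.10 ± 0.0936 and 1.92 ± 0.0859, again above 0 h in all later libraries. For the Spred2 to Spred1 ratio the values were 0.981 ± 0.0374, 1.11 ± 0.0505 and 1.04 ± 0.0021, highest in all 12 h libraries. Of the 12 exact two-sided permutation tests of these ratios, those without overlap gave p = 0.1, the smallest that 3 against 3 libraries allow, and 0.133 after Benjamini-Hochberg adjustment. None can reach 0.05 in this design.

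**Figure D3:**
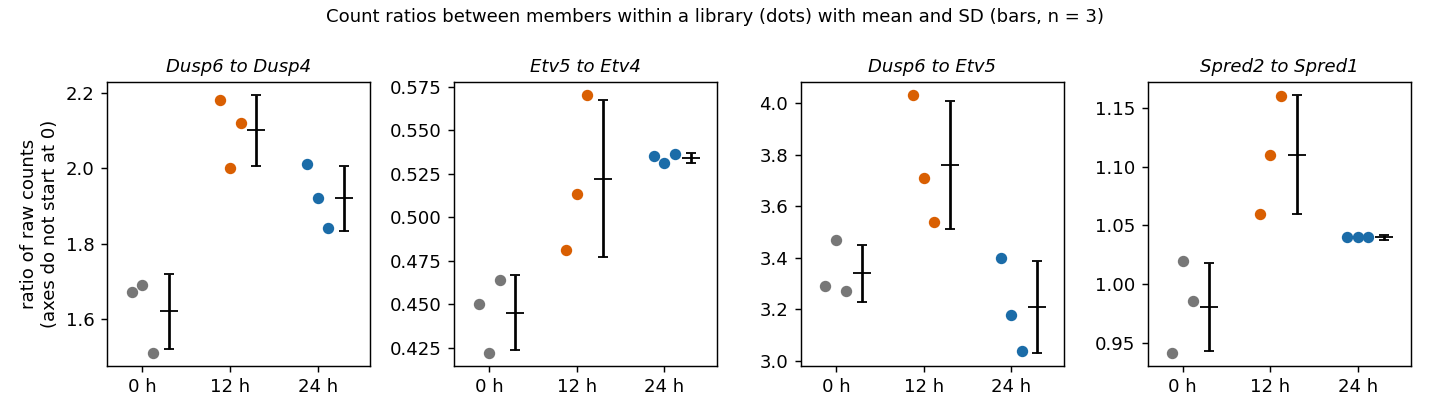
Ratio of raw counts of 2 genes within each library, by time; dots are libraries, bars the mean and SD of 3, and the axes do not start at 0. The Dusp6 to Etv5 ratio is highest in the 12 h libraries, while the Etv5 to Etv4 ratio is above 0 h at both later times.

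Among 8409 genes of at least 10 CPM, those whose course over the 9 libraries was nearest to each of the 3 genes that passed the overall test were named. Nearness was the root mean square difference of log2 CPM, each taken relative to the 0 h mean of its gene. Fhl2, at 0.04, and Basp1, at 0.051, were nearest to Dusp6. Fhl2 had log2 fold changes of 0.44 at 12 h and 0.4 at 24 h. For Etv5 they were Cebpb, at 0.042, with log2 fold changes of 0.29 and 0.4, and Zfp52, at 0.066. Arhgef5, at 0.027, and Vav2, at 0.029, were nearest to Etv4.

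The other genes of the pathway were taken from 4 lists. Of all tested genes 13.6% rose and 11.9% fell at 12 h, and 9.67% rose and 7.76% fell at 24 h. Their median log2 fold changes were -0.0028 and -0.0065. Of 20 other feedback inhibitors 16 were tested, and at 12 h 5 rose and 1 fell, with a median log2 fold change of 0.096. At 24 h 1 rose and 1 fell, with a median of 0.046. Dusp7, a cytoplasmic ERK phosphatase closely related to Dusp6, had means of 94.3, 117 and 135 CPM at the 3 times. Its log2 fold changes were 0.31 ± 0.045 and 0.52 ± 0.045 (edgeR adjusted p = 0.000106 and 7.43e-07), and it was the single gene of this list that differed between 24 and 12 h (0.22, edgeR adjusted p = 0.0106). Dusp8, which acts on stress kinases, rose at 12 h by 0.67 ± 0.15 on the log2 scale (edgeR adjusted p = 0.00296), or by 0.48 without the third 12 h library. Dusp10, of the same class, rose by 0.53 ± 0.16 (edgeR adjusted p = 0.021). Its call was lost in 4 of the 15 other settings: by DESeq2, without the first or the third 0 h library, and without the third 12 h library, where it was at 0.3 (edgeR adjusted p = 0.0966). Lztr1, an adaptor for RAS degradation, fell at both times, by 0.14 each (edgeR adjusted p = 0.0108 and 0.0174). Leaving out the third 12 h library ended its 12 h call (edgeR adjusted p = 0.0509). The 24 h call was lost whenever 1 of 5 libraries was left out (edgeR adjusted p up to 0.0748).

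Of 26 genes known to be induced by ERK, 24 were tested, and at 12 h 15 rose and 1 fell, with a median log2 fold change of 0.27. Of all tested genes 13.6% rose and 11.9% fell at 12 h. At 24 h 8 of the 24 rose and 2 fell (median 0.11), beside 9.67% and 7.76% of all tested genes. The falls at 24 h were thus near the share over all genes. Lower at 24 h than at 12 h were 6 of the 24, beside 3.06% of all tested genes. Ier3, an immediate early gene, had means of 65.9, 105 and 70.5 CPM at the 3 times, with a difference of 0.67 ± 0.077 (log2) at 12 h (edgeR adjusted p = 1.07e-05). The zinc finger factor Egr1 and the cytokine Lif rose by 0.65 and 0.64 at 12 h. Without the third 12 h library Ier3, Egr1 and Lif were at 0.58, 0.46 and 0.46, each under 1.5-fold. Fos, a subunit of AP-1, was at 21.2, 22.2 and 14.8 CPM, and fell at 24 h by 0.52 ± 0.087 (edgeR adjusted p = 0.000467). Emp1 and Nr4a1 rose at both times, by 0.44 and 0.51 and by 0.5 and 0.47, and Klf10 rose at 24 h by 0.31. Phlda1 fell at both times, by 0.31 and 0.27, and 33% of its exonic bases overlap Gm28592 on the other strand. Its call at 24 h was lost whenever 1 of 4 libraries was left out (edgeR adjusted p up to 0.0735).

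In the ERK cascade itself, from adaptors and RAS to the RSK kinases, 5 of 20 genes rose and 2 fell at 12 h. Of all tested genes 13.6% rose and 11.9% fell at that time, and the list median was 0.009. At 24 h 2 rose and 1 fell (median 0.046), near the 9.67% and 7.76% of all tested genes. The scaffold Ksr1 rose at both times, by 0.26 ± 0.087 and 0.31 ± 0.087. Map2k1, which encodes MEK1, and Rps6ka1, which encodes an RSK kinase, rose at 12 h by 0.19 and 0.17. Araf fell by 0.16 at both times and the RAS exchange factor Sos2 by 0.15 at 12 h. Leaving out 1 library could end the calls of Ksr1 (edgeR adjusted p up to 0.135 at 12 h and 0.136 at 24 h), Araf (0.0891 and 0.13) and Sos2 (0.0722), but not those of Map2k1 and Rps6ka1. Between 24 and 12 h none of the 20 passed in edgeR, 3 had an unadjusted p under 0.05, and 1 was called by DESeq2.

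Of 23 other ETS factors and Capicua genes, 17 were tested, and 3 rose and 1 fell at 12 h, while 3 rose at 24 h. Of all tested genes 13.6% rose and 11.9% fell at 12 h, and 9.67% rose at 24 h. The list medians of the log2 fold change were 0.021 at 12 h and 0.03 at 24 h. Elk3, a ternary complex factor that ERK phosphorylates, rose by 0.26 ± 0.084 at 12 h and 0.44 ± 0.082 at 24 h (edgeR adjusted p = 0.0286 and 0.00116). The 12 h call was lost in 5 of the 15 other settings (edgeR adjusted p up to 0.14). These left out the third 0 h library or any 1 at 12 h, or fitted only the 2 times compared. The ETS repressor Erf rose by 0.21 and 0.18. Gabpa rose at 12 h by 0.14 and Ets2 at 24 h by 0.18. The fall at 12 h was that of Fli1 (-1.61, edgeR adjusted p = 0.0197), a gene at a mean of 0.75 CPM that was named after its value was seen.

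**Figure D4:**
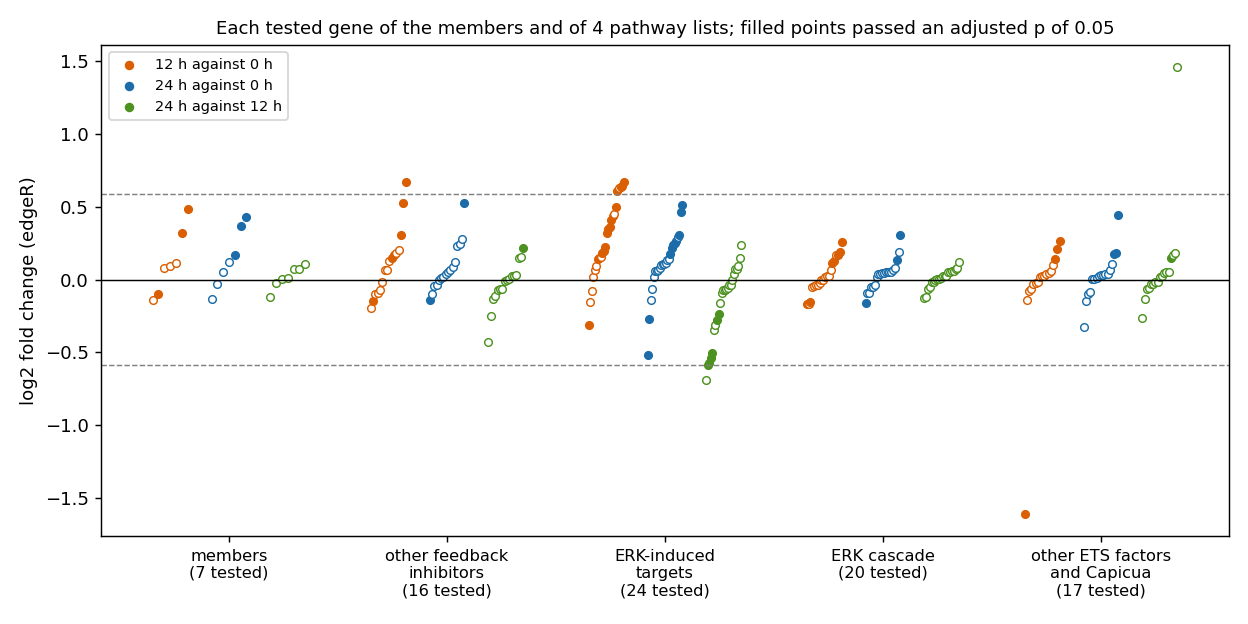
Log2 fold change of each tested gene of the feedback and ETV set (members) and of the 4 lists in the 3 comparisons, with genes of a list sorted by value; filled points passed an adjusted p of 0.05 and dashed lines mark 1.5-fold. The 24 ERK-induced targets lie mostly above 0 at 12 h, and the isolated low point at -1.61 is Fli1.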

How the data were processed

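Poly(A) RNA of 9 MyC-CaP libraries (3 per time) was sequenced as paired-end reads of 150 bp. The authors trimmed with Cutadapt, aligned with STAR to GRCm38 and counted with featureCounts on a GENCODE annotation. The deposited values are raw counts per gene, not normalized. Strand and multimapping settings are not given in the sources used here.

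Counts were filtered with filterByExpr and scaled by TMM in edgeR 4.0.16 (R 4.3.3). All 9 libraries were fitted together with glmQLFit, pairs of times and the 3 times at once were tested with glmQLFTest, and p-values were adjusted by Benjamini-Hochberg over the 11373 tested genes. Standard errors were derived from F. CPM use TMM-scaled totals, and log2 CPM a prior count of 2. Exon lengths came from GENCODE M21, where 99.13% of rows had the same position as in the file. The procedure was tested on simulated data. Alternatives were RLE and total-count scaling, no filter, DESeq2 1.42.0, a replicate block, 2 times only, and leaving out each library. Library totals give the depth, and intervals on counts cover counting error only.

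The 10 genes, the 4 lists and the searched motifs were chosen with earlier results of these data known. From each list the text names, per comparison and direction, up to 3 genes past the adjusted p with the largest change and a mean of at least 1 CPM, except 1 that is not reported here. Course neighbors were the 2 nearest genes of at least 10 CPM.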

Additional observations from a re-analysis of the deposited data

Results flagged for a closer look

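None of the 7 tested feedback and ETV genes differed between 24 and 12 h by the test of that difference (edgeR, adjusted over all genes). Of all tested genes 1.97% were higher at 24 h and 3.06% lower. Of the list genes 8 passed this test, and 5 of them follow. These 5 were named because they passed, so their number cannot be set against that of the 7. Dusp7, the relative of Dusp6, had a log2 fold change against 0 h of 0.31 at 12 h and 0.52 at 24 h, a difference of 0.2157 (edgeR adjusted p = 0.0106, or 0.0702 without the first 12 h library). In the opposite direction, Ier3 went from 0.67 to 0.098, a difference of -0.5742 (edgeR adjusted p = 0.000402). Egr1 went from 0.65 to 0.11, a difference of -0.5366 (edgeR adjusted p = 0.0199), which was -0.34 without the third 12 h library and did not pass without any 1 of the 24 h libraries (edgeR adjusted p up to 0.084). Fos went from 0.069 to -0.52, a difference of -0.5873 (edgeR adjusted p = 0.000829). Ets2 went from 0.025 to 0.18, a difference of 0.1512 (edgeR adjusted p = 0.0488), and no longer passed under 9 of 15 other settings.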

How the results depend on the processing

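The calls of Dusp6 and Etv5 at 12 and 24 h and of Etv4 at 24 h held under all 15 alternatives, with adjusted p of at most 0.0447. Spred1 at 12 h passed under total-count scaling alone. Without either the second or the third 24 h library, 2 of the 7 passed the overall test instead of 3. Pathway list genes that differed between 24 and 12 h numbered 8, but 14 with no low-count filter, and between 5 and 14 when 1 library was left out (14 without the third 12 h library, 5 without the first or the third at 24 h). Differences near 0 changed sign. Dusp4 between 24 and 12 h was -0.012 without the first 12 h library (range -0.012 to 0.031). Spry4 ranged with 1 library left out from -0.29 to 0.17 at 12 h, from -0.38 to 0.17 at 24 h and from -0.25 to 0.23 between them, and was -0.0041 by DESeq2 for the last. The log2 Etv5 to Etv4 ratio between 24 and 12 h ranged from -0.020 (without the first 12 h library) to 0.10. Of 510 values for list genes 453 kept their call and 57 lost it, with no change of sign. The counts of Spry4 (33 to 89) and Dusp5 (0 to 6) limit what depth can show.

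Replicate numbers are shared across times. Deviations of same-numbered libraries correlated at -0.0744 to 0.131, with 1 of 9 pairs over 0.1 and 4 of 9 libraries nearest to their own number. With 3 libraries per time this check has little power, and it cannot tell whether same-numbered wells were handled together. With the replicate block 2 of the 7 passed at 12 h and 3 at 24 h, and Spry4 between 24 and 12 h was -0.028. Over all genes, 1555 rose and 1401 fell at 12 h with the block, beside 1547 and 1349 without it.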
